A study of Mus musculus with 6 samples.

Results

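T cells carry inhibitory surface receptors, often called checkpoint receptors, that lower signaling when they meet their ligands on other cells. Chronic stimulation of CD8+ T cells raises several of these receptors together, and the nuclear protein TOX is known for setting up that exhausted state, while resting T cells of an untreated spleen express most of them at low levels. The genes described here are the 7 receptor genes Pdcd1, Lag3, Havcr2, Tigit, Ctla4, Btla and Cd160 and the transcription factor gene Tox. They are 8 of the 44678 Ensembl genes in the deposited data. They were chosen by symbol, with no threshold on a measured value, but with earlier results of these data known.

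The data are 6 RNA-seq libraries, 3 from wild type (WT) and 3 from miR-144/451 knockout (KO) mice. Per the labels, they hold untreated CD8a+ leukocytes of the spleen. The study's methods describe KO mice on a C57BL/6J background without the segment that holds both microRNA precursors, C57BL/6J WT mice, an age of 8-12 weeks for all animals, and magnetic beads for sorting CD8+ T cells and, separately, CD11c+ dendritic cells. No restriction of the deletion to a cell type is described. The study's text introduces its sequencing with a question on dendritic cells, and which sort gave these libraries is not stated. The labels do not say whether libraries came from separate mice, and p-values measure only the spread between these samples.

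Library totals lay between 8143971 and 8876570 expected counts, that is, estimates of reads per gene in which fractions occur. Levels are given as CPM, counts scaled to a common library total, and 3 counts are worth between 0.338 and 0.368 CPM. Such floors cover counting error only. Mir144 and Mir451a had 0 counts in each WT and KO library, so these counts do not check the deletion. T cell markers were abundant, and markers of other cells were present. The summed level of 11 T cell markers ran from 2770 CPM in KO library 2 to 5210 CPM in WT library 2. The summed level of 9 B cell markers ran from 1360 CPM in KO library 3 to 3230 CPM in KO library 2. Cd8a reached 692, 1030 and 967 CPM in WT and 696, 481 and 1020 CPM in KO libraries. WT library 1 and KO libraries 1 and 2 were thus lower in T cell and higher in B cell markers than the other libraries of both genotypes. In such bulk samples, fewer cells of a type and less RNA per cell cannot be told apart.

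MicroRNAs act mainly by pairing their seed, bases 2 to 8, with sites in the 3′-UTRs of mRNAs. The seeds of the deleted locus were therefore looked up in the 3′-UTRs of the 8 genes. The mature sequences are from RefSeq (GRCm38.p6), with the seed in capitals. They lie on the plus strand at chr11:78073047-78073066 for miR-144-3p, chr11:78073010-78073032 for miR-144-5p and chr11:78073186-78073207 for miR-451a.
miR-144-3p: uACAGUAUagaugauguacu
miR-144-5p: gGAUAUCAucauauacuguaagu
miR-451a: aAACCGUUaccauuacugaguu

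Among the 8 genes, the longest annotated 3′-UTRs of Cd160 (1840 nt) and Tox (2072 nt) each held 2 matches to the whole seed of miR-144-3p, searched as ATACTGT on the mRNA strand. None of the 8 held a match to the whole seed of miR-144-5p (TGATATC) or miR-451a (AACGGTT). Without base 8 of the seed, Tox held 4, Cd160 2 and Pdcd1 1 match to miR-144-3p, whole-seed matches included. Cd160 held 1 such match to miR-144-5p. Of all protein-coding genes, 34% and 15.1% held at least 1 of these shorter matches to miR-144-3p and miR-144-5p. These 3′-UTRs, in GENCODE M21, ran from 81 nt in Lag3 to 2295 nt in Btla. The sites are shown because they are the whole-seed matches found among the 8 genes. Capitals mark the match.
Cd160 site 1: gaactgtttatttaATACTGTaaaaaat
Cd160 site 2: agcagaaatgggaaATACTGTcttgggt
Tox site 1: gttactgtttctccATACTGTgtctgta
Tox site 2: actttactgtcttgATACTGTataagaa

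The Cd160 matches lie in exon 4 on the minus strand of GRCm38, at chr3:96799615-96799621 and chr3:96798936-96798942. The Tox matches lie in exon 9 on the minus strand, at chr4:6687541-6687547 and chr4:6686433-6686439. Among genes with a 3′-UTR within 10% of the same length, 14.7% of 1445 genes for Cd160 and 17.7% of 1386 genes for Tox held at least 1 match. The shares with 2 or more were 1.87% and 2.31%. Among all 20661 protein-coding genes with a 3′-UTR, 12% held a match. A match describes letters only, not binding.

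All 8 genes had enough counts to be tested, within 13024 tested genes. Genotypes were compared by the quasi-likelihood test of edgeR, and p-values were adjusted by Benjamini-Hochberg over all of these. None of the 8 genes passed an adjusted p of 0.05, against 0.0307% of all tested genes. DESeq2 and limma voom also called 0 of the 8. At an unadjusted p under 0.05 there was 1 gene, Havcr2, where 6.25% of all tested genes reached that level. It was higher in KO libraries, as 4.14% of tested genes were at that level, while 2.11% were lower. Ranges of the genotypes were apart in 1 of the 8 genes (12.5%), again Havcr2, against 11.5% of all tested genes. All KO libraries lay above all WT libraries in 6.71% of tested genes, and all below in 4.79%. With 1 gene of 8, the share is near this background. In means, 3 genes (Lag3, Havcr2 and Btla) had higher and 5 (Pdcd1, Tigit, Ctla4, Cd160 and Tox) lower CPM in KO libraries, differences that did not pass the test.

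**Figure D1:**
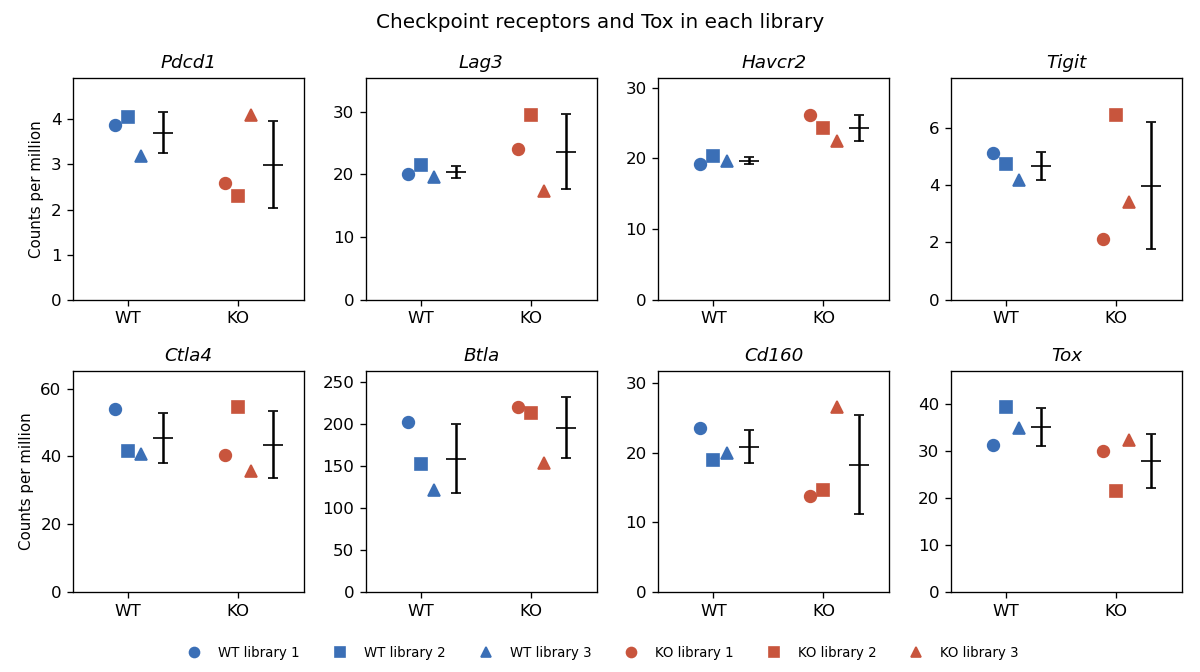
CPM of the 8 genes in 3 WT libraries (blue) and 3 KO libraries (red), where bars give the mean ± SD and the marker shape gives the library number. Havcr2 is the gene whose KO libraries, from 22.4 to 26.1 CPM, all lie above its WT libraries, from 19.2 to 20.3 CPM.

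Pdcd1 (ENSMUSG00000026285, GRCm38 chr1:94038305-94052553) encodes PD-1, the receptor for the ligands PD-L1 and PD-L2, which recruits the phosphatase SHP-2 to stop T cell receptor signaling. It had 34, 36 and 26 counts in WT and 22, 19 and 36 counts in KO libraries. KO libraries 1 and 2 were lowest, whereas KO library 3 was among the highest, and the groups overlapped. The WT mean was 3.71 ± 0.454 CPM, and the KO mean was 2.99 ± 0.963 CPM (SD, n = 3 each). KO against WT, the fitted log2 fold change was -0.32 ± 0.32 (SE), at an adjusted p of 0.874 by edgeR. At this depth the 95% interval of the fold spanned 0.478 to 1.34. With the T cell marker level as a covariate, the log2 fold change was -0.06. Leaving out 1 library at a time, it ran from -0.65 without KO library 3 to -0.17 without KO library 2.

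Ctla4 (ENSMUSG00000026011, chr1:60887000-60915832) encodes CTLA-4, which binds CD80 and CD86 and so competes with the co-stimulatory receptor CD28, and which regulatory T cells express constantly. Its level was 54.0, 41.6 and 40.6 CPM in WT and 40.4, 54.4 and 35.6 CPM in KO libraries. WT library 1 and KO library 2 were high and nearly equal, and the other libraries of both genotypes lay together below them. edgeR gave Ctla4 a log2 fold change of -0.08 ± 0.17 (SE; adjusted p = 0.937), and a 95% interval of the fold of 0.714 to 1.25. The defining regulatory T cell gene Foxp3 was also detected, at 19.2, 9.46 and 11.3 CPM in WT and 20.5, 14.5 and 11 CPM in KO libraries. With the T cell marker covariate, the log2 fold change of Ctla4 was -0.38, with an unadjusted p of 0.0112 and an adjusted p of 0.651 by edgeR. The sign turned without WT library 1 (0.05) and without KO library 3 (0.01), and the value was -0.27 without KO library 2.

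Btla (ENSMUSG00000052013, chr16:45224315-45257670) and Cd160 (ENSMUSG00000038304, chr3:96798763-96829351) encode receptors for the same ligand, HVEM, the product of Tnfrsf14. B cells and dendritic cells also make BTLA, and natural killer cells also make CD160. Btla was at 203, 152 and 122 CPM in WT and at 220, 214 and 154 CPM in KO libraries. The 3 highest libraries were KO libraries 1 and 2 and WT library 1, the same 3 in which the B cell marker sum was 2940, 3230 and 2760 CPM, against 1360 to 1630 CPM in the others. For Btla the log2 fold change was 0.28 ± 0.2 (SE; adjusted p = 0.838 by edgeR), and the fold had a 95% interval of 0.889 to 1.66. With the T cell marker covariate it was 0.01, and with the covariate of B cell, monocyte and cDC1 markers it was 0.00. With the replicate block, that is, the library number as a term, it was 0.29 with an unadjusted p of 0.0294 by edgeR. Leaving out 1 library at a time gave values from 0.11 without WT library 3 to 0.49 without WT library 1 (unadjusted p = 0.0238 by edgeR). The part of B cell RNA in the Btla levels was not tested beyond these covariates.

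Cd160 was at 23.5, 19 and 20 CPM in WT and at 13.8, 14.6 and 26.5 CPM in KO libraries. KO libraries 1 and 2 lay below all WT libraries, while KO library 3 lay above them. Cd160 thus split the KO libraries as Pdcd1 did. Its log2 fold change was -0.20 ± 0.26 (SE; adjusted p = 0.895 by edgeR), and the 95% interval of the fold was 0.574 to 1.31. Without KO library 3 it was -0.60, with an unadjusted p of 0.00675 and an adjusted p of 0.196 by edgeR. It was -0.05 without KO library 1 and -0.06 without KO library 2. Its sign turned with the T cell marker covariate, to 0.03. Cd160 shares 68 exon bases with Pdzk1 on the opposite strand, and whether reads were counted by strand is not given in the sources used here.

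Lag3 (ENSMUSG00000030124, chr6:124904361-124911705) encodes a receptor for MHC class II that resembles CD4. It was at 20, 21.4 and 19.6 CPM in WT and at 24, 29.4 and 17.4 CPM in KO libraries. The WT libraries lay close together, and KO libraries were found on both sides of them. A log2 fold change of 0.19 ± 0.19 (SE) was fitted (adjusted p = 0.871 by edgeR), with a 95% interval of the fold of 0.846 to 1.54. Without KO library 2 it was 0.01, and without KO library 3 it was 0.34. It turned to -0.10 with the T cell marker covariate and to -0.03 with the covariate of B cell, monocyte and cDC1 markers.

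Havcr2 (ENSMUSG00000020399, chr11:46454935-46481255) encodes TIM-3, a receptor of galectin-9 that is found on exhausted T cells and also on dendritic cells, the CD8a+ subset (cDC1) included. It was at 19.2, 20.3 and 19.6 CPM in WT and at 26.1, 24.3 and 22.4 CPM in KO libraries. Every KO library lay above every WT library. The WT mean was 19.7 ± 0.529 CPM and the KO mean 24.3 ± 1.83 CPM (SD, n = 3 each), a ratio of 1.23. Havcr2 had a log2 fold change of 0.28 ± 0.12 (SE; unadjusted p = 0.0475, adjusted p = 0.786 by edgeR). It lay between 0.21 and 0.31 in all alternatives, and its unadjusted p was under 0.05 in 2 of the 14, with limma voom (0.0466) and where only genes of 10 or more counts on average were kept (0.0473). The WT libraries varied by 2.69%, less than the 7.29% that counting error alone gives at this depth.

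The summed level of 8 cDC1 markers was likewise higher in every KO library, at 758, 723 and 685 CPM against 536, 527 and 580 CPM in WT libraries. Of the 8 markers, none passed the adjusted threshold and none was at 0 in all libraries. A log2 fold change above 0 was seen in 7 of them, against 50.6% of all tested genes, and an unadjusted p under 0.05 in 5, against 6.25%. Among 64 marker genes of 9 cell types, the 2 nearest to Havcr2 over the 6 libraries were Wdfy4 and Tlr3, both of the cDC1 list. Their mean absolute distances from Havcr2 were 0.125 and 0.155 in centred log2 CPM, against a median of 0.409 over the 64 markers. Havcr2 itself deviated from its own mean by 0.139 on average, so that Wdfy4 lay little nearer than a constant level would and Tlr3 lay farther. With the joint covariate of B cell, monocyte and cDC1 markers the log2 fold change of Havcr2 was 0.25, and the part of cDC1 RNA alone was not tested. Havcr2 lies on the chromosome of the deleted locus, 31.6 Mb from Mir144.

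Tigit (ENSMUSG00000071552, chr16:43648867-43664146) encodes a receptor that competes with CD226 for CD155, the product of Pvr. It had 45, 42 and 34 counts in WT and 18, 53 and 30 counts in KO libraries. The lowest and the highest value were both KO libraries. The WT mean was 4.68 ± 0.475 CPM and the KO mean 3.99 ± 2.22 CPM (SD, n = 3 each). Tigit had a log2 fold change of -0.25 ± 0.4 (SE; adjusted p = 0.914 by edgeR). The interval of the fold, from 0.444 to 1.58, was the widest of the 8 genes on the log2 scale. The T cell marker covariate moved the log2 fold change to -0.67. Without KO library 1 its sign turned, to 0.04, and without KO library 2 it was -0.77.

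Tox (ENSMUSG00000041272, chr4:6686353-6991557) encodes an HMG-box protein that is needed for T cell development in the thymus and for the exhausted state of CD8+ T cells. It was at 31.3, 39.3 and 35 CPM in WT and at 30.1, 21.4 and 32.3 CPM in KO libraries. KO library 2 was lowest, and KO library 3 exceeded WT library 1, so that the ranges overlapped. Tox had a log2 fold change of -0.35 ± 0.17 (SE; unadjusted p = 0.0765, adjusted p = 0.816 by edgeR). Its 95% interval of the fold was 0.594 to 1.03. Without KO library 3 the log2 fold change was -0.50 (unadjusted p = 0.0248 by edgeR), and without KO library 2 it was -0.19. For both genes that hold the miR-144-3p matches printed above, Tox and Cd160, the KO mean lay below the WT mean, by differences that did not pass the test.

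KO library 2, lowest for Tox, was also lowest for the T cell marker sum. Among the 64 marker genes, the 2 nearest to Tox were the T cell receptor genes Trbc2 and Cd3g, at mean absolute distances of 0.064 and 0.0726 in centred log2 CPM, against a median of 0.654 over the markers and a mean deviation of Tox itself of 0.206. With the T cell marker covariate the log2 fold change of Tox was -0.10 (unadjusted p = 0.509 by edgeR). The T cell marker sum itself averaged 4770 CPM in WT and 3810 CPM in KO libraries, so covariate and genotype partly coincide. Tox shares 260 exon bases with the antisense gene Gm11802.

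**Figure D2:**
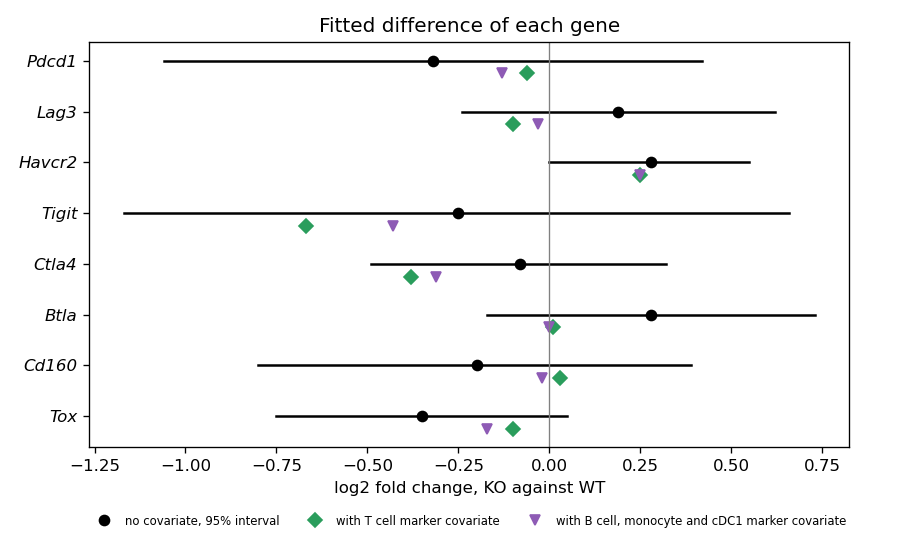
Log2 fold change of each gene in KO against WT libraries (black points, with 95% intervals from the fit without a covariate). Green diamonds (T cell markers) and purple triangles (B cell, monocyte and cDC1 markers) give the value with a marker covariate. The T cell marker covariate moves Tox from -0.35 to -0.10, Btla from 0.28 to 0.01 and Havcr2 from 0.28 to 0.25. It moves Ctla4 from -0.08 to -0.38 and Tigit from -0.25 to -0.67, away from 0.

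**Figure D3:**
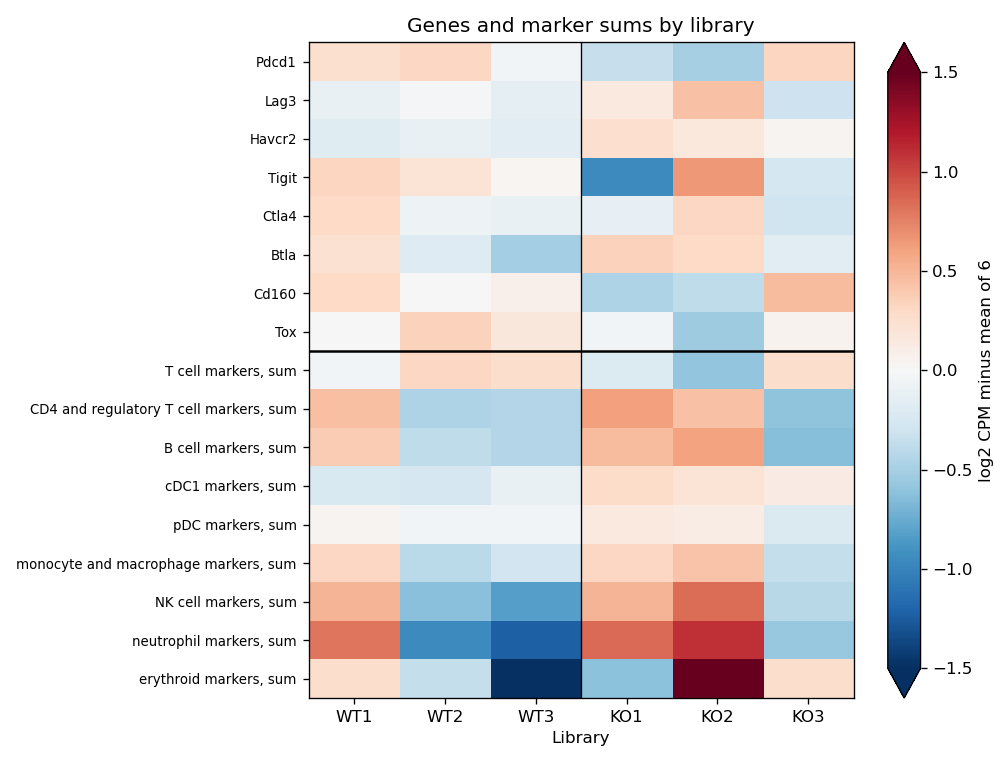
Log2 CPM of the 8 genes and of the summed markers of 9 cell types in each library, minus the mean of the 6 libraries (color). The erythroid sum of KO library 2 lies beyond the color scale, at 1.96, and Havcr2 and the cDC1 sum are the rows in which all 3 KO libraries lie above all 3 WT libraries.

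Since T cell RNA differed between libraries, each gene was also set against the counts of Cd3d, Cd3e and Cd3g, the CD3 chains of the T cell receptor complex. Per 1000 such counts, Tox had 42.7, 44.4 and 38.2 in the WT libraries and 46, 41.9 and 37.1 in the KO libraries. On this scale the KO mean was 0.997 times the WT mean. Pdcd1 had 5.28, 4.58 and 3.48 in the WT libraries and 3.94, 4.52 and 4.71 in the KO libraries, a ratio of 0.986. Cd160 had a ratio of 1.06. Tigit had 6.98, 5.35 and 4.56 in the WT libraries and 3.22, 12.6 and 3.92 in the KO libraries, and Ctla4 had 73.7, 47 and 44.4 against 61.7, 107 and 40.9. Their ratios of 1.17 and 1.27 rest on KO library 2, without which they were 0.634 and 0.933.

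The ratio was 1.6 for Havcr2, 1.6 for Btla and 1.57 for Lag3. KO library 2 was the highest for each of them, and without it the ratios were 1.39, 1.32 and 1.17. Without KO library 3 they were 1.86, 1.95 and 1.94. Havcr2 had 26.2, 22.9 and 21.4 in the WT libraries and 39.8, 47.6 and 25.8 in the KO libraries. On this scale KO library 3 fell just below WT library 1, so that the ranges of Havcr2 overlapped. They overlapped for the other 7 genes as well. Genes that other cells of the fraction also express, as is known of Btla, Cd160 and Havcr2, are not measured per T cell by such a ratio. Which cells of the fraction carried the Lag3 counts was not tested.

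**Figure D4:**
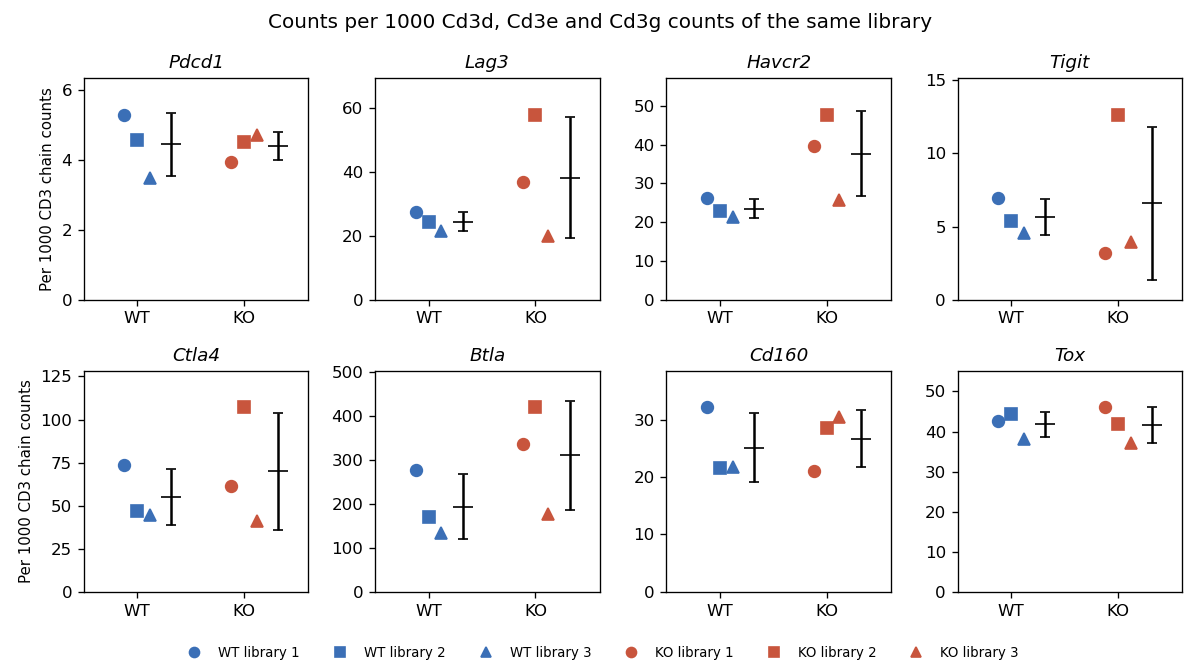
Counts of each gene per 1000 counts of Cd3d, Cd3e and Cd3g in the same library, with the mean ± SD of 3 WT (blue) and 3 KO libraries (red). Tox lies between 37.1 and 46 in all 6 libraries, and KO libraries 1 and 2 are the highest for Havcr2 (39.8 and 47.6) and for Lag3 (36.7 and 57.6).

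Levels can be compared between genes only per length. In CPM per kb of exon, averaged over the 6 libraries, Btla was highest at 52.3, followed by Ctla4 at 19.1, Lag3 at 10.4, Havcr2 at 8.08, Cd160 at 7.41, Tigit at 4.71, Tox at 4.15 and Pdcd1 at 1.74. Btla exceeded Ctla4, Ctla4 exceeded Lag3 and Lag3 exceeded Havcr2 in 6 of 6 libraries. Havcr2 exceeded Cd160 in 3 of 6, Cd160 exceeded Tigit in 5 of 6 and Tigit exceeded Tox in 2 of 6 libraries, so that these neighbours were not separated beyond their spread. Tox exceeded Pdcd1 in 6 of 6 libraries. Of the tested genes, 93.6% lay below Btla on this scale and 20.3% below Pdcd1.

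The place of Tox depends on its length. Its annotated exons together cover 7.609 kb, whereas its longest transcript has 3961 nt. With the longest transcript the level of Tox was 7.97 CPM per kb, and Tox moved from the seventh to the fifth place.

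**Figure D5:**
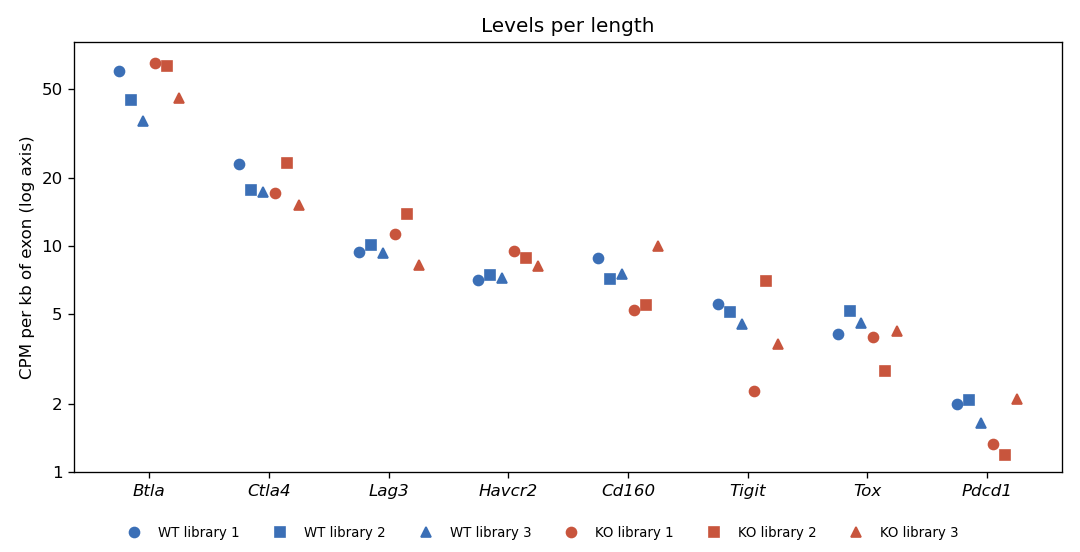
CPM per kb of exon (log axis) of the 8 genes in each of the 3 WT (blue) and 3 KO (red) libraries, ordered by the mean of the 6. Btla, from 36 to 64.8, stands above the other genes in every library, and Pdcd1, from 1.2 to 2.12, is lowest in every library.

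The coefficient of variation was higher in KO libraries for 7 of 8 genes, where 52.7% of all tested genes showed this. It was 25.5% in KO against 4.55% in WT libraries for Lag3, and 38.9% against 11.4% for Cd160. Btla was the exception, at 18.7% in KO and 25.7% in WT libraries. For 4 genes the WT libraries varied less than the counting error of their mean count, and for none of the 8 did the KO libraries. The share of all tested genes with this was not counted, so it is not known to be particular to these genes. The difference in spread was not tested.

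The partners of these receptors were described with lists of ligands, signaling genes, co-stimulatory receptors, other inhibitory receptors and transcription factors. No gene of the 5 lists passed an adjusted p of 0.05. All KO libraries lay above all WT libraries in 2 ligand, 1 signaling, 1 co-stimulatory and 3 transcription factor genes. They all lay below in 1 co-stimulatory and 2 other inhibitory genes. Of all tested genes, 6.71% lay above, 4.79% lay below and 6.25% had an unadjusted p under 0.05 by edgeR. Of 17 ligand genes, 13 were tested, 12 had a log2 fold change above 0 and the median was 0.234, against 0.00297 over all tested genes. By the rule for named genes, the largest were Pdcd1lg2, which encodes PD-L2, at 0.45 (unadjusted p = 0.215 by edgeR), and Lgals3, which encodes galectin-3, at 0.41 (unadjusted p = 0.0861 by edgeR). Tnfrsf14, the gene of the HVEM ligand of BTLA and CD160, had -0.16. Cd86, the CTLA-4 and CD28 ligand, was the ligand gene with an unadjusted p under 0.05, and is named after its values were seen. It was at 40.7, 37.4 and 35.5 CPM in WT and at 50.3, 50.2 and 43.8 CPM in KO libraries (log2 fold change 0.32, adjusted p = 0.694 by edgeR). The median log2 fold changes of the marker lists were 1.11 for erythroid cells, 0.902 for NK cells, 0.699 for neutrophils, 0.479 for cDC1, 0.342 for CD4 and regulatory T cells, 0.3 for monocytes and macrophages, 0.291 for B cells, -0.156 for plasmacytoid dendritic cells and -0.329 for T cells. The part of these cells in the ligand values was not tested.

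Of 13 signaling and turnover genes, all were tested, none had an unadjusted p under 0.05 and the median was 0.04. Inpp5d, the gene of the phosphatase SHIP-1, and Grb2, an adaptor gene, had log2 fold changes of 0.17 and 0.16. Sh2d1a, the gene of the adaptor SAP, and Lck, the kinase of the T cell receptor, had -0.31 and -0.24.

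Of 8 co-stimulatory receptor genes, 2 had a log2 fold change above 0 and the median was -0.192. Tnfrsf18, which encodes GITR, was at 23.2, 26.9 and 28.2 CPM in WT and at 21.4, 18.9 and 20.8 CPM in KO libraries, and the groups did not overlap (log2 fold change -0.38, unadjusted p = 0.0206, adjusted p = 0.74 by edgeR). Tnfrsf9, the gene of 4-1BB, had -0.38 as well (unadjusted p = 0.134 by edgeR). Icos and Cd28, neighbours of Ctla4 on chromosome 1, had 0.18 and 0.05. The groups did not overlap for Icos either, in the opposite direction, with 40.8, 35.8 and 33.5 CPM in WT and 41.1, 41.7 and 43.4 CPM in KO libraries.

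Of 13 other inhibitory genes, 4 had a log2 fold change above 0 and the median was -0.215, beside a median of -0.329 for the 11 T cell markers. Nt5e, the gene of the ectoenzyme CD73, was at 58.4, 65.7 and 61.7 CPM in WT and at 39.7, 44.1 and 56.4 CPM in KO libraries, without overlap (log2 fold change -0.42, unadjusted p = 0.0169, adjusted p = 0.716 by edgeR). Entpd1, the gene of CD39, which acts one step before CD73 in the breakdown of extracellular ATP, had 0.50 (unadjusted p = 0.0467 by edgeR). Cd244a and Cd6 had 0.63 and -0.36. Cd5 and Vsir, named after their values were seen, had -0.33 and -0.23 with unadjusted p-values of 0.0422 and 0.0479 by edgeR. For Vsir, too, every KO library lay below every WT library.

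Of 20 transcription factor genes, 19 were tested, none had an unadjusted p under 0.05 and the median was 0.0803. Nr4a2 and Nr4a1, which T cell receptor signaling induces, had 0.45 and 0.37. Lef1, a factor of naive T cells, and Batf had -0.39 and -0.28. Of the TOX relatives, Tox2 had 0.35 and Tox4 had 0.04, and Tox3 was too low to be tested.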

How the data were processed

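RNA-seq of 3 WT and 3 KO libraries was analysed. Values deposited by the authors are unscaled expected counts, 1 per Ensembl gene, as read from the values, with 3527 to 4925 fractional values a library. The submitters' processing notes name GRCm38 and mm10. The aligner, the counting program and the use of strand are not given in the sources used here. Of the 44678 identifiers, 44121 (98.75%) matched GENCODE M21.

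Counts were rounded and fitted in R 4.3.3 with edgeR 4.0.16 (TMM normalization, filterByExpr at its minimum of 10 counts, total of at least 15, quasi-likelihood test, Benjamini-Hochberg adjustment, threshold 0.05). TMM factors lay between 0.989 and 1.01. Standard errors were taken from the fold change and its F statistic. Libraries of a genotype differed by more than sampling noise (chi-square per degree of freedom 6.17 to 21.8). The procedure was tested on simulated data, where it returned the simulated fold sizes but left many of the smaller changes uncalled, and where the share of false calls was above the nominal threshold. The absence of a call therefore does not show the absence of a difference. Alternatives were DESeq2 1.42.0, limma 3.58.1 voom, upper-quartile normalization, other filters, a replicate block, marker covariates and each library left out. The marker covariates come from the same libraries and partly coincide with genotype, so fits with them do not separate genotype from cell composition.

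The genes and lists were chosen with earlier results of these data known. The rule names the 8 genes, of each list the 2 most positive and 2 most negative log2 fold changes at a mean log2 CPM of 1 or more, defining markers, and the 2 markers nearest to each gene. In the list of other inhibitory receptors, 13 of 14 symbols matched an identifier, all but Pvrig.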

Additional observations from a re-analysis of the deposited data

How the results depend on the processing

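None of the 8 genes and no gene of the 5 lists passed the adjusted threshold in any of the 14 alternatives. With 1 library left out at a time, the log2 fold change ran from -0.27 to 0.05 for Ctla4 and from -0.77 to 0.04 for Tigit, changing sign without WT library 1 (0.05) or KO library 3 (0.01) for Ctla4 and without KO library 1 for Tigit. With the T cell marker covariate, Lag3 turned to -0.10 and Cd160 to 0.03, and with the covariate of B cell, monocyte and cDC1 markers Lag3 turned to -0.03. The cause was not tested. Pdcd1, Havcr2, Btla and Tox changed sign in no alternative, with ranges of -0.65 to -0.06, 0.21 to 0.31, 0.00 to 0.49 and -0.50 to -0.10, and adjusted p-values from 0.278 to 1.

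Among all tested genes, 4 were called, against 58 with DESeq2, 12 without a filter, 9 with the replicate block, 8 and 11 with the T cell and the other marker covariate, and 2 to 94 with 1 library left out (94 without KO library 3). Same-numbered libraries share only a number, with correlations of their deviations of -0.0168, -0.162 and 0.0738. The replicate block called 0 of the 8 genes. Between 0 and 2 of the 8 had an unadjusted p under 0.05 across alternatives, and they were Havcr2, Tox, Btla, Ctla4 or Cd160, depending on the setting. Against Cd8a and Cd8b1 counts in place of CD3 counts, the KO to WT ratio was 1.06 for Tox and 1.72 for Havcr2. Leaving libraries out of the CD3 ratios, chosen after seeing the data, gave 0.945 to 1.05 for Tox and 0.634 to 1.47 for Tigit. With the longest transcript as length, Ctla4 moved from 19.1 to 23.0 and Tox from 4.15 to 7.97 CPM per kb. Pdcd1 and Tigit had 18 to 53 counts a library. Their KO libraries varied by 32.2% and 55.7%, against 18.6% and 16.4% from counting error.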

Other observations

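Among the 64 marker genes, those nearest to Pdcd1 over the 6 libraries were Ly6c2 and Cd3g, at mean absolute distances of 0.0614 and 0.114 in centred log2 CPM against a median of 0.641. Ly6c2, listed here as a monocyte gene and also expressed by memory CD8+ T cells, was the nearest to Cd160 as well, at 0.0827. Lag3 was nearest to Siglech and Wdfy4 (0.153 and 0.174), Ctla4 to Klk1 and Siglech (0.159 and 0.19), Tigit to Klk1 and Klf1 (0.284 and 0.404), and Btla to Il2ra and Ccr2 (0.125 and 0.134). The mean deviation of each gene from its own mean was 0.296 for Pdcd1, 0.295 for Cd160, 0.184 for Lag3, 0.198 for Ctla4, 0.403 for Tigit and 0.28 for Btla.

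Tested genes with 2 or more miR-144-3p seed matches in the longest 3′-UTR numbered 262, of which 65.6% had a log2 fold change above 0 (median 0.065), against 49.3% of the 10004 without a match (median -0.003). These groups were not matched for 3′-UTR length or level and were not tested. Cd160 and Tox, which belong to the 262, had -0.20 ± 0.26 and -0.35 ± 0.17 (SE). With the T cell marker covariate the values were 0.03 and -0.10. Neither gene passed the adjusted threshold in either fit.

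The summed neutrophil, natural killer cell, erythroid and plasmacytoid dendritic cell markers varied between libraries, and for each of these 4 lists the ranges of the genotypes overlapped. Neutrophil markers ran from 215 CPM in WT library 3 to 1080 CPM in KO library 2, natural killer cell markers from 25.7 CPM in WT library 3 to 81.4 CPM in KO library 2, and erythroid markers from 235 CPM in WT library 3 to 2600 CPM in KO library 2. Plasmacytoid dendritic cell markers ranged from 218 to 282 CPM.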
